A study of Mus musculus with 12 samples.

Results

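The brush border of the small-intestinal enterocyte was examined through 10 genes of the microvillus and its anchorage, in RNA sequencing of epithelial cells taken from mice 24 h after experimental stroke or sham surgery. The genes were chosen by the role of their proteins, though with earlier results of these data known. They were the actin bundlers Vil1, Pls1 and Espn, the tip protein Eps8, the membrane linker Ezr, the membrane-cytoskeleton motor Myo1a, and the protocadherins Cdhr2 and Cdhr5 with their cytoplasmic partners Ush1c and Myo7b. All 10 were present among the 15855 genes of the table and all 10 passed the filter on low counts, which kept 14462 genes. The samples came from 7 sham-operated mice and 5 mice with permanent middle cerebral artery occlusion (pMCAO), in which a large brain artery is closed for good. According to the methods, sham animals had the same operation without the occlusion. The labels give the strain as C57BL6/J and name no transgene or deletion, and the methods give an age of 8 to 12 weeks and male animals unless stated otherwise. The cells were sorted as EpCAM-positive and 7AAD-negative, that is as epithelial cells that exclude a dye of dead cells, from the whole small intestine, so duodenum, jejunum and ileum were pooled. The comparison asked how the transcripts of the apical cytoskeleton stood in the epithelium of post-stroke mice against sham-operated mice.

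A microvillus is a finger of plasma membrane held up by a core bundle of parallel actin filaments, and many of them, packed side by side on the apical face of the enterocyte, form the brush border on which nutrients are digested and absorbed. Villin, plastin-1 and espin cross-link the core filaments, Eps8 sits at the growing tips, ezrin and myosin-1a tie the bundle to the membrane along its sides, and the rootlets descend into the terminal web, a mat of myosin, spectrin and tropomyosin beneath the microvilli. Cdhr2 and Cdhr5 form adhesive links between the tips of neighbouring microvilli, and Ush1c (harmonin) and the motor Myo7b hold these links in place. The set is known for its rise as cells leave the crypt and differentiate on the villus.

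The sequences just upstream of the transcription start are shown for the bundlers and for the pair of protocadherins, because Pls1 had the highest estimate of the 10 genes after pMCAO, above its fellow bundlers Vil1 and Espn, and because Cdhr2 and Cdhr5 varied most alike of all pairs. RefSeq windows on GRCm38.p6 were matched for 8 of the 10 genes. Each line gives 250 bases before the RefSeq start, 5′ to 3′ on the strand of the gene. Capitals mark matches to the GC box of SP1, GGGCGG or its reverse complement. The windows lie at chr1:74409134-74409383 on the plus strand for Vil1, chr9:95845280-95845529 on the minus strand for Pls1, chr4:152152390-152152639 on the minus strand for the most upstream of 3 starts of Espn, chr13:54701213-54701462 on the plus strand for Cdhr2 and chr7:141276787-141277036 on the minus strand for Cdhr5.
Vil1: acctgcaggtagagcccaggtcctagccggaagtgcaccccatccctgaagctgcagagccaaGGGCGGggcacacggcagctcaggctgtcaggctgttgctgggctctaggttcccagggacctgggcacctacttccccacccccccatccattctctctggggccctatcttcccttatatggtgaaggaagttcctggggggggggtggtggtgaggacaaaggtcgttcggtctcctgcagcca
Pls1: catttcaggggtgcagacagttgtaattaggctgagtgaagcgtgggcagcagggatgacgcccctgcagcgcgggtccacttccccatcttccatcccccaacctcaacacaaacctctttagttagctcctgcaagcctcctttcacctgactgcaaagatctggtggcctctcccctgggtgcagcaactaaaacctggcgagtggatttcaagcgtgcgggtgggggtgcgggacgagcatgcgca
Espn: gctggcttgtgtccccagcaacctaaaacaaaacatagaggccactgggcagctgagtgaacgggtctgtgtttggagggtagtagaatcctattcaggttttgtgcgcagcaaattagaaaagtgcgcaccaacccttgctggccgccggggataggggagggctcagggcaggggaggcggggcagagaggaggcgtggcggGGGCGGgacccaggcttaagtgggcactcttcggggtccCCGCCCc
Cdhr2: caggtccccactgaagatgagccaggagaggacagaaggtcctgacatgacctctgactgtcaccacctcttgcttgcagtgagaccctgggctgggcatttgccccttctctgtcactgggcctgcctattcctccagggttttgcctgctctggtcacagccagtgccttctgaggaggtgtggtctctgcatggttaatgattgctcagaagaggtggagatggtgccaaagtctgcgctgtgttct
Cdhr5: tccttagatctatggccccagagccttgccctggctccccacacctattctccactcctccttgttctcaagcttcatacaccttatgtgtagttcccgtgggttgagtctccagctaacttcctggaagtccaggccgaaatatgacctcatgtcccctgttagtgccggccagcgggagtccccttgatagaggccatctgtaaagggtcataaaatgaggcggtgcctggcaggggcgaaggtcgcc

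The GC box was found in 5 of the 10 windows of the matched genes, which belonged to Vil1, Espn, Ezr and Ush1c, and in 32.7% of all 32851 RefSeq windows cut to the same length. The window of Vil1 held 1 match and that of the upstream start of Espn held 2, whereas the windows of Pls1, Cdhr2 and Cdhr5 held none. Of the other Espn windows, the most downstream held 1 match and the middle one none. Which start of Espn the cells used was not examined. On both strands, 4 other motifs were searched with the same letters in every window. The CDX motif TTTATNG was found in 1 member window, that of the most downstream start of Espn, against 9.81% of all windows. The HNF4 motif CAAAGTNCA (1.19% of all windows), the GATA motif AGATAA (9.99%) and the TATA box TATAAA (12.4%) were found in 0 of the 10 windows. A match is a description of the letters and not evidence of binding.

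The total count per sample ranged from 7418730 to 31925579, and 13386 to 15766 genes had at least 1 read. The 10 genes together received between 39965 and 257287 reads in a sample, or 0.539% to 0.963% of the counts, and the lowest count of any of them in any sample was 281, for Espn. Mitochondrial ribosomal RNA took 14.6% to 54.5% of the counts. The 4 libraries numbered 58 to 61 (pMCAO replicate 1 and sham replicates 1, 2 and 3) lay apart from the other 8 on the first principal component, which held 34.6% of the variance. Summed over its markers, the tuft cell list stood at 19.3 to 56.7 CPM (read counts scaled per 1e6 of the library) in these 4 libraries and 223 to 1010 CPM in the others, and the crypt and secretory list at 1560 to 2830 CPM and 7190 to 18600 CPM. Most of the crypt and secretory sum was Muc2, at 1500 to 2790 CPM in these 4 libraries and 6880 to 18200 CPM in the others. All 6 genes of that list had a lower mean log2 level in these 4 libraries, with differences of -3.74 to -1.21. The part of these differences in the results was not tested. The labels do not give the day of tissue collection, and the libraries were therefore also compared within sets of library numbers, called runs below: 58 to 61, 62 to 65, 66 to 68, and 72 alone. The limits of the runs do not follow from the numbering. They came from earlier work that had matched the fold changes of the authors' deposited comparison, so a fit with the runs is not independent of it. The epithelial markers Epcam, Cdh1 and Cldn7 summed to 1450 to 3810 CPM and were above 0 in every sample, and the enterocyte list to 14500 to 51300 CPM. Of 8 stromal and muscle markers, 2 were in the table, Pecam1 and Vim, at 2.31 to 13.7 CPM in sum.

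None of the 10 genes was differentially expressed (DE) between pMCAO and sham samples, with DE defined in limma-voom by an adjusted p (Benjamini-Hochberg) no higher than 0.05 together with a log2 fold change of 1 or more in either direction. The background was the same, with 0 of 14462 genes DE (0%), although 1219 genes (8.43%) had an unadjusted p under 0.05. Of the 10 genes, 2 reached that level, Pls1 with a higher estimate after pMCAO, as in 4.66% of all genes, and Eps8 with a lower one, as in 3.77%. The tools differed in how many genes they called over the whole table: edgeR called 0, limma-trend 1 and DESeq2 70, and each of the 3 called 0 of the 10 genes and had the same 2 under an unadjusted p of 0.05. The median log2 fold change of the 10 genes was -0.17, with 3 estimates higher and 7 lower, against 0.06 for all genes tested. With the runs as a covariate, 47 genes were DE (0.325%) but 0 of the 10, and 0 of the 10 were among the 69 genes (0.477%) that had an adjusted p of 0.05 or less at any fold. The median became -0.09 against 0.01 for all genes, again with 3 higher and 7 lower. Without libraries 58 to 61, on the group alone, 6 estimates were higher and 4 lower. With the runs and all 12 samples, unadjusted p was under 0.05 for 3 of the 10 genes and for 12.7% of all genes tested. It was so for Pls1 and Myo1a with higher estimates (6.58% of all genes) and for Eps8 with a lower one (6.17%).

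The 95% intervals give the size of change that the samples leave possible. Without the runs, 9 of the 10 intervals lay between -1 and 1 on the log2 scale, the exception being Eps8, and 2 left out 0. With the runs, all 10 lay within those bounds and 3 left out 0. The median standard error (SE) of the 10 log2 fold changes was 0.24, against 0.38 over all genes tested, and it was 0.15 against 0.33 with the runs.

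**Figure D1:**
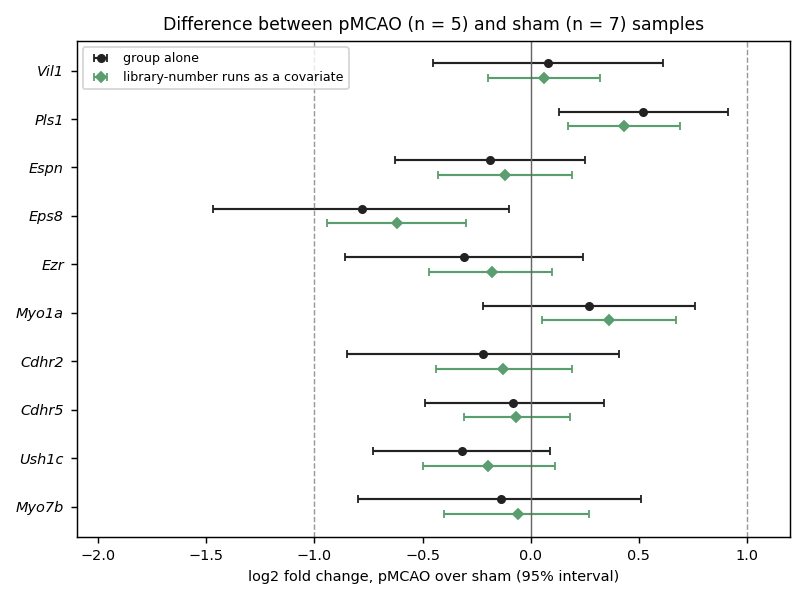
Log2 fold change of pMCAO over sham (horizontal axis) for each of the 10 genes with its 95% interval from limma-voom, on the group alone (black circles) and with the library-number runs as a covariate (green diamonds), with dashed lines at the threshold of 1 in either direction. Pls1 lies above 0 and Eps8 below 0 in both fits, at 0.52 and -0.78 on the group alone, and the intervals of Myo1a leave out 0 only with the runs.

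Plastin-1, encoded by Pls1 (ENSMUSG00000049493, chromosome 9, 95752642 to 95845311, minus strand, GRCm38), is the fimbrin that packs the core filaments and links the rootlets to the terminal web. Its level was 1410, 1150, 878, 1350 and 1250 CPM in pMCAO replicates 1 to 5. In sham samples it ranged from 656 to 1010 CPM with a median of 866 CPM. All pMCAO samples but replicate 3 lay above the highest sham sample, so the groups overlapped by that 1 sample. The means were 1210 ± 211 CPM (SD, n = 5) after pMCAO and 851 ± 115 CPM (SD, n = 7) after sham surgery. The log2 fold change was 0.52 (SE 0.18, 95% interval 0.13 to 0.91), or 1.44-fold. Its limma-voom p was 0.0116 unadjusted, and the adjusted p = 0.47. With the runs it was 0.43 (SE 0.12) with an adjusted p of 0.149. The estimate was higher after pMCAO within each run that held both groups, by 0.67, 0.29 and 0.37 on the log2 scale. Unadjusted p passed 0.05 under 1 of 37 alternatives, with the runs and without libraries 58 to 61, where the log2 fold change was 0.33 and p was 0.0838. Over the same 37 the adjusted p ranged from 0.0624 to 0.798.

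Eps8 (ENSMUSG00000015766, chromosome 6, 137477245 to 137654876, minus strand, GRCm38) encodes the actin capping and bundling protein of the microvillus tip. Its level was 715, 250, 404, 300 and 300 CPM in pMCAO replicates 1 to 5. Sham samples ranged from 309 to 942 CPM with a median of 666 CPM. pMCAO replicates 2, 4 and 5 lay below the lowest sham sample, and replicates 1 and 3 lay inside the range of the sham samples. The means were 394 ± 188 CPM (SD, n = 5) after pMCAO and 673 ± 265 CPM (SD, n = 7) after sham surgery. For Eps8 the log2 fold change was -0.78 (SE 0.32, 95% interval -1.47 to -0.10), a ratio of 0.581. The limma-voom p was 0.0273 unadjusted, and the adjusted p = 0.541. With the runs the estimate was -0.62 (SE 0.15), the unadjusted p 0.000748 and the adjusted p 0.0808, the smallest of the 10 genes. It was lower after pMCAO within each of the 3 runs, with log2 differences of -0.38, -0.91 and -0.45. On the group alone the unadjusted p rose above 0.05 when sham replicate 1, 2 or 3 or pMCAO replicate 2, 4 or 5 was left out, with p up to 0.0704, whereas with the runs it was under 0.05 whichever replicate was left out. In DESeq2 with the runs, Eps8 had an adjusted p of 0.0224 at a log2 fold change of -0.62, below the fold threshold.

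The other bundlers stood differently. Villin, encoded by Vil1, both bundles and severs actin, and its level was 1610, 833, 758, 1090 and 1130 CPM in pMCAO replicates 1 to 5 against 574 to 1360 CPM in sham samples, with a sham median of 976 CPM. pMCAO replicate 1 lay above every sham sample and the others inside the sham range, and the log2 fold change was 0.08 (SE 0.25, 95% interval -0.45 to 0.61, adjusted p = 0.948). Its sign turned when pMCAO replicate 1 or sham replicate 7 was left out, at -0.08 and -0.05. Espin, the product of Espn, is a small bundler with 20 annotated transcripts at this gene. Its level was 64.6, 43.7, 36.7, 36.8 and 38.4 CPM after pMCAO and 36.4 to 73.1 CPM in sham samples, with a median of 46.1 CPM. Except for pMCAO replicate 1, the pMCAO samples lay below the sham median, and the log2 fold change was -0.19 (SE 0.21, 95% interval -0.63 to 0.25, adjusted p = 0.818).

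Among the linkers, Ezr encodes ezrin, which binds the actin core with its tail and membrane proteins with its head. Its level was 1210, 612, 638, 639 and 824 CPM in pMCAO replicates 1 to 5, and sham samples ranged from 612 to 1420 CPM with a median of 904 CPM. The lowest pMCAO and sham samples were level and no pMCAO sample reached the highest sham sample. For Ezr the log2 fold change was -0.31 (SE 0.26, 95% interval -0.86 to 0.24, adjusted p = 0.748), and it was below 0 within each of the 3 runs, at -0.09, -0.25 and -0.19. Myo1a (ENSMUSG00000025401, chromosome 10, 127705170 to 127720940, plus strand, GRCm38) encodes the single-headed motor of the lateral bridges between core and membrane. Its level was 712, 474, 336, 519 and 593 CPM after pMCAO. Sham samples ranged from 319 to 567 CPM with a median of 428 CPM. pMCAO replicates 1 and 5 lay above the highest sham sample and replicate 3 among the lower sham samples. On the group alone the log2 fold change was 0.27 (SE 0.23, 95% interval -0.22 to 0.76, adjusted p = 0.75), and it was 0.36 (SE 0.15, 95% interval 0.05 to 0.67) with the runs. The unadjusted p of 0.0271 with the runs went with an adjusted p of 0.321, and it rose above 0.05 when sham replicate 4 or 6 or pMCAO replicate 1, 2 or 5 was left out, with a log2 fold change of 0.21 to 0.35.

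The 4 genes of the intermicrovillar adhesion complex all had estimates below 0 on the group alone, from -0.32 to -0.08, and none had an unadjusted p under 0.05. Without libraries 58 to 61, still on the group alone, 3 of the 4 turned above 0, Cdhr2 at 0.02, Cdhr5 at 0.01 and Myo7b at 0.20. Cdhr2, the protocadherin that pairs with Cdhr5 across the gap between tips, stood at 2180, 983, 1170, 1250 and 1280 CPM in pMCAO replicates 1 to 5. Sham samples ranged from 837 to 2400 CPM with a median of 1780 CPM. Every pMCAO sample lay inside that range. The log2 fold change was -0.22 (SE 0.30, 95% interval -0.85 to 0.41, adjusted p = 0.857). Cdhr5, the mucin-like protocadherin, stood at 1560, 1040, 1060, 1180 and 1150 CPM after pMCAO. Sham samples ranged from 926 to 1530 CPM with a median of 1320 CPM. Only pMCAO replicate 1 lay outside the sham range, just above it, and the log2 fold change was -0.08 (SE 0.20, 95% interval -0.49 to 0.34, adjusted p = 0.931).

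Ush1c encodes harmonin, the scaffold that gathers the protocadherin tails. Its level was 103, 86.6, 93.8, 89.1 and 75.3 CPM in pMCAO replicates 1 to 5 and 81.5 to 157 CPM in sham samples, with a median of 116 CPM. All pMCAO samples lay below the sham median, and pMCAO replicate 5 was the lowest of the 12 samples. The log2 fold change was -0.32 (SE 0.19, 95% interval -0.73 to 0.09, adjusted p = 0.655), and within the runs it was -0.49, -0.11 and -0.01. Myo7b encodes the myosin that carries the complex towards the tips. Its level was 949, 419, 439, 695 and 778 CPM after pMCAO and 381 to 1150 CPM in sham samples, with a median of 632 CPM. Every pMCAO sample lay inside the sham range. Between the groups the log2 fold change was -0.14 (SE 0.31, 95% interval -0.80 to 0.51, adjusted p = 0.921). Within the runs it was -0.17, -0.43 and 0.59, so the sign was not shared.

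**Figure D2:**
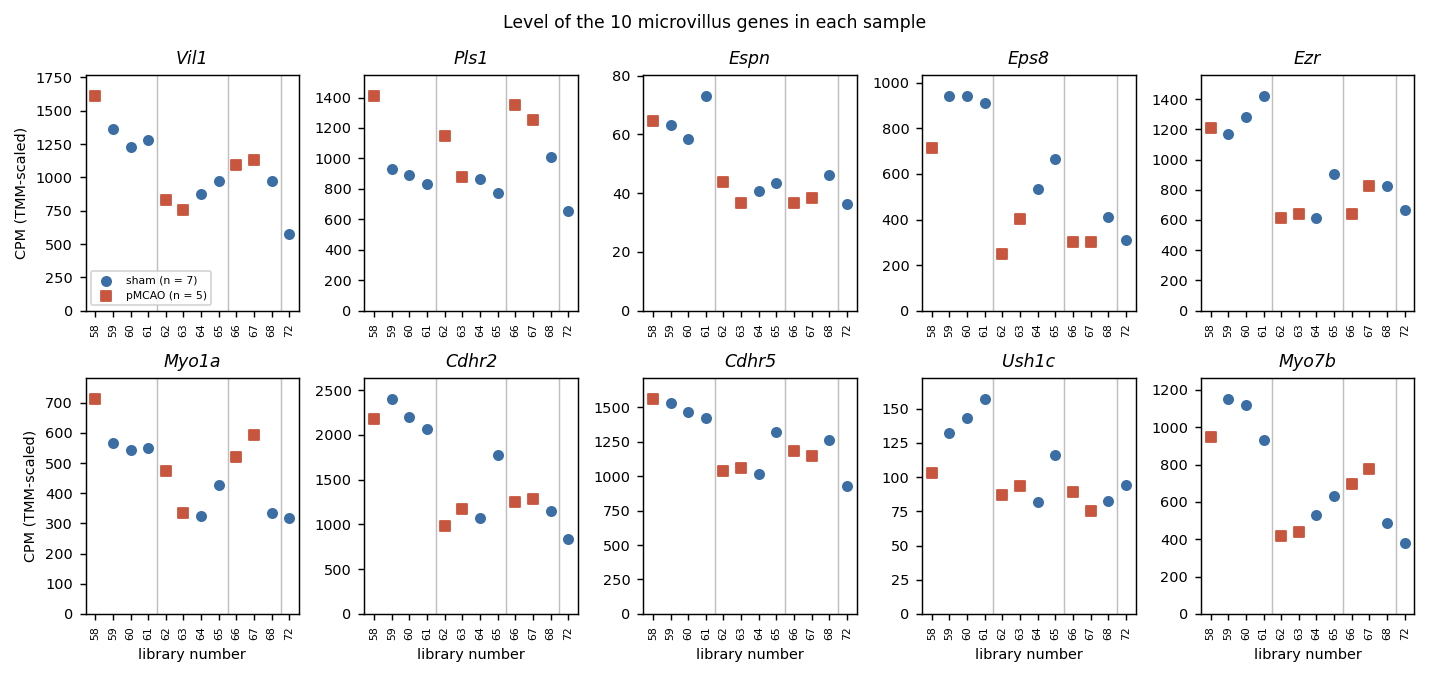
Level of each of the 10 genes in CPM (vertical axes from 0, scaled with TMM factors) in the 12 samples ordered by library number (horizontal axes), with sham samples as blue circles, pMCAO samples as red squares and grey lines between the runs. Libraries 58 to 61 stand highest for 7 of the genes in both groups, while the pMCAO samples of Pls1 lie above the sham samples of their own run, at 878 to 1410 CPM against 656 to 1010 CPM over all sham samples.

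For 9 of the 10 genes, all but Pls1, the log2 difference between libraries 58 to 61 and the other 8 was larger than the log2 fold change between the groups. In 7 of the 10 genes, Vil1, Espn, Eps8, Ezr, Cdhr2, Cdhr5 and Myo7b, each of libraries 58 to 61 lay above each of the other 8, which held for 5.46% of all genes tested. The reverse held for 0 of the 10 and for 9.40% of all genes. The mean log2 level in libraries 58 to 61 minus that in the others ranged from 0.04 for Pls1 to 1.21 for Eps8, with a median of 0.66 against -0.1 for all genes tested. Ezr, for example, stood at 1270 ± 110 CPM (SD, n = 4) in libraries 58 to 61 and at 715 ± 117 CPM (SD, n = 8) in the others. Pls1 stood at 1020 ± 267 CPM and 992 ± 243 CPM in the same libraries. In no member did the pMCAO samples lie wholly above or below the sham samples, which held for 0.311% and 0.194% of all genes, and this was also so among libraries 62 to 72 alone, with 1.87% and 1.64%. Libraries 58 to 61 also had the lower tuft, crypt and secretory sums given above, a higher epithelial sum (3030 to 3810 CPM against 1450 to 2750 CPM), and mitochondrial ribosomal RNA at 34.8% to 54.5% of the counts against 14.6% to 35.2%. Epcam, Cldn7 and the early response gene Jun were each higher in all 4 than in any of the other 8. The 7 enterocyte markers were split between libraries 58 to 61 and the others. Their log2 differences were 1.03 for Apoa4, 0.95 for Alpi and 0.94 for Apoa1, but -0.27 for Fabp2, -0.96 for Anpep, -1.07 for Sis and -1.49 for Fabp1. The part of these values in the result was not tested, and in bulk samples fewer cells of a type and less RNA per cell cannot be told apart.

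Within the 3 runs that held both groups, the sign of the pMCAO minus sham difference was the same for 6 of the 10 genes, against 30.2% of all genes tested. Pls1 and Myo1a were higher, and Espn, Eps8, Ezr and Ush1c were lower, the difference of Espn rounding to 0 in the first run. For Vil1, Cdhr2, Cdhr5 and Myo7b the sign was not shared. Each run rests on 1 to 3 samples of a group.

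**Figure D3:**
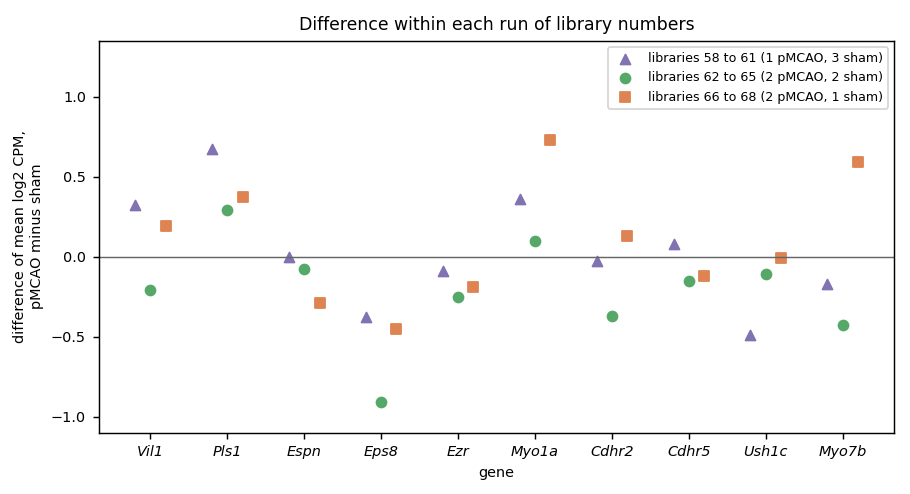
Difference of mean log2 CPM, pMCAO minus sham (vertical axis), for each of the 10 genes (horizontal axis) within libraries 58 to 61 (triangles), 62 to 65 (circles) and 66 to 68 (squares); there is no error bar because a run holds 1 to 3 samples of a group. The 3 points of Pls1 and Myo1a lie above 0, those of Eps8, Ezr and Ush1c below 0, and those of Myo7b run from -0.43 to 0.59.

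Per kilobase of annotated exon, Cdhr5 stood highest in both groups. Over the 12 samples the median was 445 CPM per kb for Cdhr5, 306 for Cdhr2, 291 for Vil1, 251 for Ezr and 235 for Pls1. It was 134 CPM per kb for Myo1a, 100.0 for Myo7b, 38.3 for Eps8, 24.5 for Ush1c and 5.27 for Espn. The order below Cdhr5 differed between the groups. In sham samples the median of Cdhr2 came next at 431 CPM per kb, whereas in pMCAO samples Pls1 (321 CPM per kb), Vil1 (307) and Cdhr2 (303) followed in that order. The ranges over the 12 samples of each pair of neighbours in this order overlapped, except those of Ush1c (19.6 to 40.8 CPM per kb) and Espn (4.40 to 8.84 CPM per kb). Compared within samples, Ezr was above Pls1 in 6 of 12 and Vil1 above Ezr in 8 of 12, whereas Cdhr5 was above Cdhr2 in 11 of 12. Division by the longest annotated transcript in place of all exons placed Vil1 (331 CPM per kb) above Cdhr2 (306 CPM per kb) and Eps8 (104 CPM per kb) above Myo7b (100.0 CPM per kb). The bundlers therefore covered a wide span of levels, with Espn lowest on both scales.

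Across the 12 samples the 10 genes varied largely together, with Pls1 as the exception. The median Pearson correlation of log2 CPM over the 45 pairs was 0.78, and 35 pairs were above 0.5. For Pls1 the values were 0.62 with Myo1a and 0.56 with Vil1 but 0.27 or less with the other 7 genes, and the 3 negative values, with Ush1c (-0.37), Eps8 (-0.25) and Ezr (-0.01), were all its own. The points share libraries and the difference between libraries 58 to 61 and the others, so these values are a description. After subtraction of the mean of each run, over the 11 libraries of the runs with both groups, the median was 0.25 and 11 pairs were above 0.5. Cdhr2 and Cdhr5 had the highest value both before (0.96) and after (0.84) the subtraction. Pls1 and Eps8 had the lowest after it, -0.79, and this pair still holds the difference between the groups.

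Beyond the 10 genes, 43 other genes of the brush border were listed by role, of which 42 were in the table and passed the filter. None was DE in limma-voom on the group alone (0%) or with the runs (0.325% of all genes). At an unadjusted p under 0.05 there were 3 of 42 on the group alone, all lower after pMCAO, against 8.43% of all genes tested. With the runs there were 7 of 42, 3 higher and 4 lower, against 12.7% of all genes. The median log2 fold change was -0.15 on the group alone, with 14 estimates higher and 28 lower, and -0.07 with the runs. The terminal web list had 10 of its 12 estimates below 0, with a median of -0.25, the apical trafficking list 5 of 5 with a median of -0.10, and the actin and tip regulators 5 of 9 with a median of -0.27, where 6476 of all 14462 genes tested were below 0. With the runs the terminal web list had 9 of 12 below 0 (median -0.18) and the apical trafficking list 4 of 5 (median -0.10), against 7049 of 14462 genes. The linkers, ezrin kinases and scaffolds had 5 of 10 below 0, the keratins 2 of 4, and the partners of the adhesion complex 1 of 2.

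The 3 genes lower after pMCAO at that level came from the terminal web list (Tpm1 and Myh14) and the list of actin and tip regulators (Actg1). All 42 genes had been listed by such roles, so a shared role is no result. The mean log2 levels of Tpm1, Actg1 and Myh14 were also higher in libraries 58 to 61 than in the others, by 0.85, 0.65 and 1.15. Those libraries are pMCAO replicate 1 and sham replicates 1, 2 and 3, and the part of this difference in the estimates was not tested. Tpm1 encodes a tropomyosin that coats actin filaments, and its level was 488, 363, 391, 270 and 306 CPM in pMCAO replicates 1 to 5 against 365 to 816 CPM in sham samples, with a median of 512 CPM. pMCAO replicates 2, 4 and 5 lay below the lowest sham sample. The estimate was -0.64 on the log2 scale (SE 0.24, adjusted p = 0.506). Actg1, the cytoplasmic gamma-actin, stood at 191, 164, 156, 109 and 118 CPM after pMCAO and at 151 to 269 CPM in sham samples, with a median of 201 CPM. pMCAO replicates 4 and 5 lay below all sham samples, and the log2 fold change was -0.52 (SE 0.21, adjusted p = 0.525). Myh14 encodes a heavy chain of non-muscle myosin II, the motor of the terminal web. It stood at 617, 306, 394, 295 and 355 CPM after pMCAO and at 359 to 971 CPM in sham samples, with a median of 679 CPM. pMCAO replicates 2, 4 and 5 lay below the lowest sham sample, and the log2 fold change was -0.73 (SE 0.31, adjusted p = 0.543). With the runs, the estimates of Tpm1, Actg1 and Myh14 were -0.43, -0.31 and -0.52, with adjusted p of 0.182, 0.338 and 0.145.

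Next in order of unadjusted p came Baiap2l2 and Eps8l2. Baiap2l2, from the list of actin and tip regulators, stood at 118, 103, 112, 94.1 and 151 CPM in pMCAO replicates 1 to 5. In sham samples it ranged from 73.7 to 130 CPM with a median of 82.8 CPM. All pMCAO samples lay above the sham median, and the log2 fold change was 0.38 (SE 0.18, adjusted p = 0.602), or 0.50 with the runs (adjusted p = 0.176). Eps8l2, a relative of Eps8, stood at 406, 194, 299, 219 and 210 CPM after pMCAO and at 195 to 602 CPM in sham samples, with a median of 436 CPM. All pMCAO samples lay below the sham median, and the log2 fold change was -0.57 (SE 0.29, adjusted p = 0.607), or -0.47 with the runs (adjusted p = 0.199). Of the annotated exons of Eps8l2, 32.2% lie opposite another transcript, and whether the counting used strand was not given in the sources used here. The same measure was 3.12% for Ush1c, 1.38% for Vil1 and 0.122% for Ezr, and no exon of the other 7 genes overlapped another gene. With the runs, Cobl and Stk26 also had an unadjusted p under 0.05, named here after their values were seen. Cobl, an actin nucleator of the brush border, had a log2 fold change of 0.47 with an adjusted p of 0.164. Stk26, a kinase of ezrin, was at 0 to 67 counts a sample, with a log2 fold change of 2.20 and an adjusted p of 0.316.

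**Figure D4:**
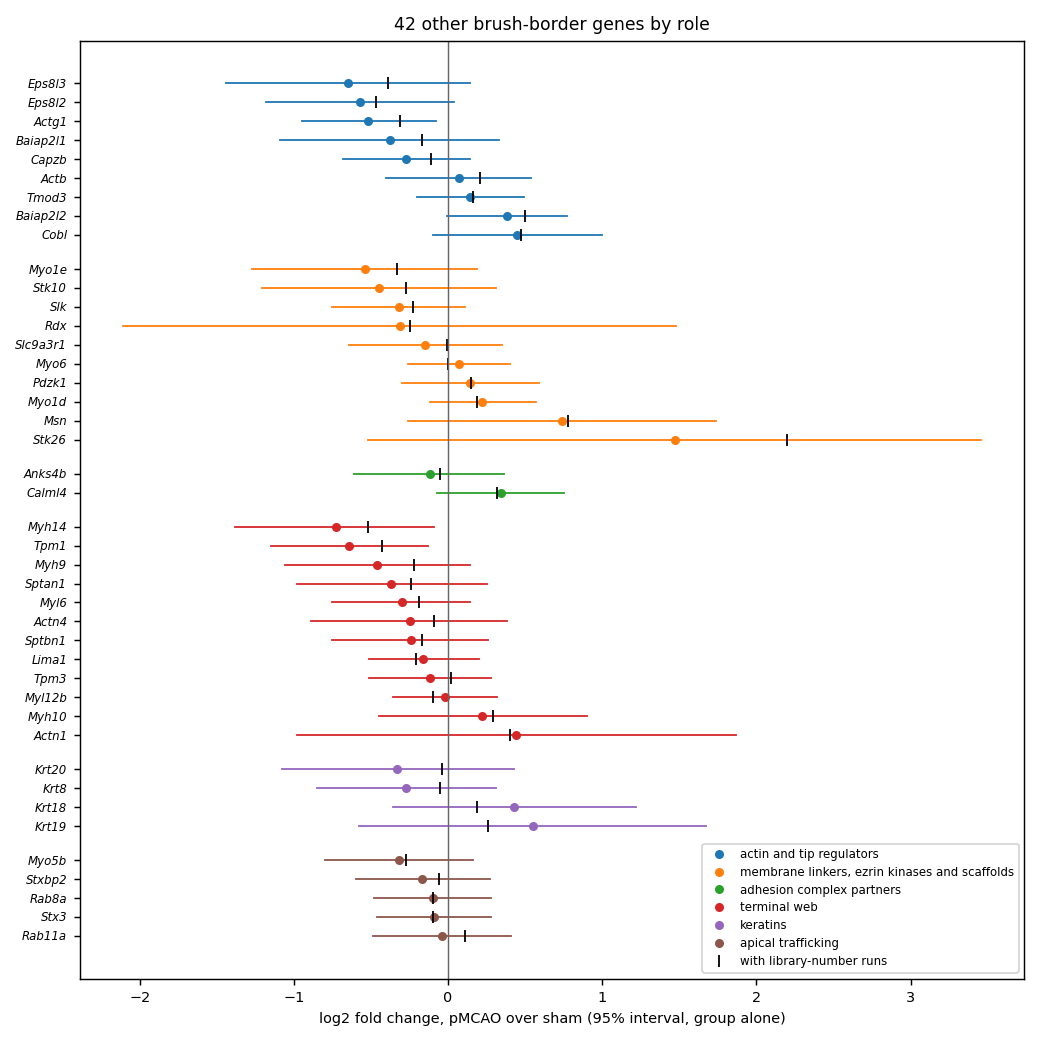
Log2 fold change of pMCAO over sham (horizontal axis) of the 42 other brush-border genes, grouped and coloured by role, with the 95% interval from limma-voom on the group alone (points and lines) and the estimate with the library-number runs (black ticks). Most terminal web genes lie below 0, with Myh14 at -0.73 and Tpm1 at -0.64, and Stk26 has the widest interval, from -0.52 to 3.46.

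Marker lists of other cells and states were set beside these values, and their part in the results was not tested. Of the 7 enterocyte markers, 4 (Anpep, Fabp1, Fabp2 and Sis) had an unadjusted p under 0.05 on the group alone, all higher after pMCAO, against 8.43% of all genes, and 2 (Fabp2 and Sis) had one with the runs, against 12.7%. With the runs, Sis had a log2 fold change of 0.74 and an adjusted p of 0.0337, below the fold threshold. The list's sum had a median of 21900 CPM in sham (14500 to 25000 CPM) and 21800 CPM in pMCAO samples (18100 to 51300 CPM), where the highest value was that of pMCAO replicate 1 and the highest without it was 26500 CPM. Of the 8 leukocyte markers, 0 had an unadjusted p under 0.05 on the group alone and 4 had one with the runs, all higher, against the same 12.7%, with sums of 48.3 to 530 CPM in sham and 69.7 to 365 CPM in pMCAO samples. The tuft list had 0 of 6 on the group alone and 1 (Pou2f3, lower) with the runs. Its sums were 19.3 to 1010 CPM in sham and 33.4 to 447 CPM in pMCAO samples. The crypt and secretory list had 0 of 6 in both, with sums of 1560 to 18600 CPM in sham and 2220 to 17000 CPM in pMCAO samples. Most of these sums was Muc2, at 1500 to 18200 CPM in sham and 2180 to 16700 CPM in pMCAO samples. Of the 4 early response genes that follow tissue handling, 1 (Jun, lower) had an unadjusted p under 0.05 on the group alone and 0 had one with the runs. Their sums were 1040 to 2810 CPM in sham and 957 to 2280 CPM in pMCAO samples. The 2 stromal markers summed to 2.31 to 13.7 CPM in sham and 4.44 to 13.4 CPM in pMCAO samples. Markers at 0 in 1 or 2 libraries were Lgr5, Olfm4, Cd3e, Cd3g, Cd79a, Pou2f3 and Gnat3.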

How the data were processed

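RNA of sorted EpCAM-positive cells was measured in 12 samples, 7 sham and 5 pMCAO, each labelled a biological replicate. According to the methods and labels, the authors removed ribosomal RNA by cleavage, aligned paired reads to GRCm38 with STAR, assigned them with featureCounts and tested them with limma-voom, correcting for the day of collection. The authors deposited whole-number counts per gene for 15855 genes, which were used as deposited. The deposited CPM columns and the deposited log2 fold change and average columns, and the p-values and false discovery rates the authors deposited, were not used, nor was any value of theirs compared. Every sample column was matched to a sample by name, with 0 left over.

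Genes were kept with filterByExpr at defaults (minimum count 10), which removed 1393 and left 14462. Counts were scaled with TMM factors and fitted with limma-voom on the group alone (limma 3.58.1, edgeR 4.0.16, R 4.3.3), with Benjamini-Hochberg adjustment over all genes tested. CPM values are TMM-scaled, and log2 CPM used a prior count of 2. Genes were called at an adjusted p no higher than 0.05 with a log2 fold change of 1 or more in either direction. The fits on the group alone and with the runs were tested on simulated data with known changes. A difference between runs was simulated only for the fit with the runs. The test therefore does not show how the fit on the group alone behaves when runs differ. No pair of samples of the same group agreed within sampling noise, the smallest chi-square per degree of freedom being 17.7. A floor of 3 counts was 0.0692 to 0.724 CPM, well below the level of every member, and it covers only the error of counting, as duplicate reads could not be told from separate molecules.

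The labels do not give the day of collection. The limits of the 4 library-number runs came from earlier work on these data, which had matched the fold changes of the deposited comparison, so a fit with them is not independent of it, and whether a run is a day is unknown. Sham replicate 7 was alone in its run and carries no weight on the group difference there. A shared replicate number was tried as a block. The members and all lists were chosen with earlier results of these data known. Named were all members, called genes of the wider list and its 5 with the smallest unadjusted p. Alternatives were edgeR, DESeq2 (1.42.0), limma-trend, sample quality weights, no filter, relative log expression factors, no mitochondrial ribosomal RNA, the runs, no libraries 58 to 61, the block and each sample left out. The runs with edgeR, with DESeq2, without libraries 58 to 61 and with each sample left out were added after seeing the data. Exon lengths came from GENCODE annotation on GRCm38 and upstream windows from RefSeq (GRCm38.p6).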

Additional observations from a re-analysis of the deposited data

Results flagged for a closer look

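Each of the 10 genes, their mean and 7 marker list sums was examined within each group for a single sample far from the others, as the gap to the nearest sample over the whole range. Of these 36 sets of values, 2 held such a sample, and chance gives about 1.8, since it flags about 1 in 20. Both were pMCAO replicate 1, the only pMCAO sample of libraries 58 to 61. Its summed epithelial markers were 11.9 on the log2(CPM + 1) scale against 10.63 ± 0.10 (SD, n = 4) among the remaining pMCAO samples. Its summed tuft markers were 5.10 against 8.61 ± 0.13 (SD, n = 4). None of the 10 genes met this rule in either group.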

How the results depend on the processing

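Pls1 kept its direction under all 37 alternatives, at 0.33 to 0.62, and Eps8 at -1.09 to -0.48. The number of genes called, 0 on the group alone, was 70 in DESeq2, 1 in limma-trend, 18 with sample quality weights, 47 with the runs, 21 with the runs in edgeR and 97 with the runs in DESeq2. With 1 sample left out it was 0 to 17, and 4 to 86 when the runs were also fitted. With the shared replicate number as a block, 243 genes were called, 1 of them a member, Eps8 (log2 fold change -1.09, adjusted p = 0.0139, against 0.0224 to 0.818 under the other alternatives), and 4 members and 18 genes of the wider list had an unadjusted p under 0.05. The replicate numbers did not pair the samples, since same-numbered samples had correlations of 0.44, -0.2, -0.11, 0.17 and 0.06, and 1 of the 5 pMCAO samples correlated best with the sham sample of their own number. The members with an unadjusted p under 0.05, 2 on the group alone, were 1 to 2 with 1 sample left out and 1 with the runs without libraries 58 to 61, and 2 to 3 with the runs and 1 sample left out. The wider list, 3 on the group alone, had 9 with sample quality weights, 7 with the runs, 6 and 7 with the runs in edgeR and DESeq2, 1 to 11 with 1 sample left out and 6 to 11 with the runs and 1 sample left out. The median of the members ranged from -0.36 to 0.02. Signs turned for Cdhr2 (0.02), Cdhr5 (0.01) and Myo7b (0.20) without libraries 58 to 61, for Vil1 with the block (-0.10) and with the runs without libraries 58 to 61 (-0.05). With 1 sample left out they turned for Vil1 (-0.05 without sham replicate 7, -0.08 without pMCAO replicate 1, against 0.19 without pMCAO replicate 3, and -0.05 with the runs without pMCAO replicate 1), and for Cdhr2 (0.03) and Myo7b (0.06) with the runs without sham replicate 5, the lowest values of these genes being -0.40 and -0.32 with 1 sample left out. The causes were not tested. The counts of the members were 281 or more in every sample.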

Other observations

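Chosen after the values were seen, the ratio of Pls1 to Eps8 counts was taken within each sample, where scaling between samples drops out. On the log2 scale it was 0.98 in pMCAO replicate 1 against -0.01, -0.08 and -0.13 in the sham samples of the same run, libraries 58 to 61. In libraries 62 to 65 it was 2.20 and 1.12 in pMCAO replicates 2 and 3 against 0.69 and 0.21 in sham replicates 4 and 5. In libraries 66 to 68 it was 2.17 and 2.06 in pMCAO replicates 4 and 5 against 1.30 in sham replicate 6. Sham replicate 7, alone in its run, had 1.09. In each run every pMCAO sample lay above every sham sample, while across runs pMCAO replicate 1 lay below sham replicates 6 and 7. The ratio of Myo1a to Ezr counts, with both genes at the sides of the core bundle, had the same order in libraries 58 to 61, at -0.77 against -1.04, -1.23 and -1.37, and in libraries 66 to 68, at -0.30 and -0.47 against -1.31. In libraries 62 to 65 pMCAO replicate 3, at -0.92, lay just below sham replicate 4, at -0.91. Neither ratio was tested, since both were picked for their pattern.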
